A study of Mus musculus with 20 samples.

Results

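The COUP-TF orphan nuclear receptors Nr2f1 (COUP-TFI), Nr2f2 (COUP-TFII) and their relative Nr2f6 (EAR2) were followed through single wells of the developing mouse habenula. The 3 genes were chosen by their measured levels: counts per plate across stages, counts on left and right plates, and the share of wells in which each gene was seen. Those values are therefore given below as a description, without a test. The members are 3 of the 37994 genes listed for the developmental series and 3 of the 36104 listed for a second set at E18.

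The measurements were made by plate-based Cel-seq2, which tags each captured transcript with a unique molecular identifier (UMI) and counts 3' ends. The developmental series held 15 plates of the Brn3a-tauLacZ line, in which a LacZ reporter sits at the gene now called Pou4f1. It covered the embryonic days E11, E12, E13, E15 and E18, the postnatal days P4 and P7, and adult mice, with 2 plates a stage but 1 for E12. The second set held 5 plates from E18 embryos of the C57BL/6 strain: left habenula filled 2 plates, right habenula 2 and both sides 1. The sources used here do not give the reporter genotype, the sex of the mice, any sorting of cells or the number of animals behind a plate. The labels name no change at a COUP-TF gene in either set.

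Nuclear receptors of the COUP-TF group bind DNA as dimers on repeats of a short half-site, AGGTCA, and lack an established natural ligand. They mostly repress transcription, in part by occupying sites of retinoid receptors and by pairing with their partner RXR. Nr2f1 and Nr2f2 act in patterning of the forebrain, in the timing of neurogenesis and, for Nr2f2, in vein and stromal identity, while Nr2f6 is expressed in many tissues.

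The 3 genes lie on different chromosomes, all on the minus strand. In GENCODE M21 (GRCm38) Nr2f1 (ENSMUSG00000069171) spans chr13:78188973-78199757, Nr2f2 (ENSMUSG00000030551) spans chr7:70351944-70366735, and Nr2f6 (ENSMUSG00000002393) spans chr8:71374123-71381960. Their promoters are printed because the receptors can act on their own kind of half-site and because the levels of Nr2f1 and Nr2f2 moved together across plates while Nr2f6 followed less closely. Each sequence is the 300 bases from 250 before to 50 after a RefSeq transcript start on GRCm38.p6, minus strand, written 5′ to 3′, at chr13:78198824-78199123 for Nr2f1, chr7:70366697-70366996 for Nr2f2 and chr8:71381903-71382202 for Nr2f6. Capitals mark matches to the motifs searched on both strands: the half-site AGGTCA, the GC box GGGCGG and the TATA-type motif TATAA.
Nr2f1: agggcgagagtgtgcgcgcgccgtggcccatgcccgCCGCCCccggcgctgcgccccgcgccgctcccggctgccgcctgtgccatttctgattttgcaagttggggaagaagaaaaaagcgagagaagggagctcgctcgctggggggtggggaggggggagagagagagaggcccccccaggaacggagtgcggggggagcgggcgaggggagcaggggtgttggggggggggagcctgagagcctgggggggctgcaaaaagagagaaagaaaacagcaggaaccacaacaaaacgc
Nr2f2: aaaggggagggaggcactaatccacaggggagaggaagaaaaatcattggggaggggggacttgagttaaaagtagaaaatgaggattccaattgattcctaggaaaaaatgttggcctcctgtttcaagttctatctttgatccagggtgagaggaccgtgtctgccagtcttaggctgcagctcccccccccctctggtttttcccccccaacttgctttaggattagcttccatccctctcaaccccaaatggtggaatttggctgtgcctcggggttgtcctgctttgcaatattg
Nr2f6: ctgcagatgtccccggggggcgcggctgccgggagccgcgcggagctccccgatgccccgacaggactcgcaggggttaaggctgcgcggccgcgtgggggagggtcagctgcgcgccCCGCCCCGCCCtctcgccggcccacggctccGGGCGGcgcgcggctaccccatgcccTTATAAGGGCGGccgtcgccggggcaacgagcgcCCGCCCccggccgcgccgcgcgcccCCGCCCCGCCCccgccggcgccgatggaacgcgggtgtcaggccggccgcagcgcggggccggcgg

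All 3 genes matched an entry of the RefSeq promoter table, and Nr2f1 matched 2, of which the upstream start is printed. No printed window held AGGTCA or its reverse TGACCT, a motif present in 16.26% of the 32851 promoters in the table. The GC box or its reverse CCGCCC occurred once in the Nr2f1 window, 7 times in the Nr2f6 window and not in the Nr2f2 window, against 35.66% of promoters with at least 1. TATAA or its reverse TTATA was found only for Nr2f6, where the match on each strand covers the same stretch next to a GC box; 24.87% of promoters hold it. Neighbouring GC boxes in the Nr2f6 window overlap by 1 base where they form a longer capital run. The windows also differed in base composition, with 68.0% G and C and 23 CpG in Nr2f1, 49.7% and 2 CpG in Nr2f2, and 82.7% and 53 CpG in Nr2f6, beside a median of 7 CpG over all promoters. These matches describe letters in the windows and no binding was measured.

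The kept wells numbered 3729 of 5756 in the series and 1082 of 1920 in the second set, and plates held 758697 to 7760372 counts. Median counts per kept well ran from 5058 on adult plate 1 to 29100 on left plate 2. Pou4f1, a marker of habenula neurons, was seen in 2933 of the kept series wells and in 727 of those in the second set. Wells whose highest-scoring marker list was neuronal, with Pou4f1 left out of the lists, made up 44.6% to 98.3% of a series plate. That share was under 65% on E13 plate 2 (62.0%), E18 plate 1 (52.1%), adult plate 1 (44.6%) and adult plate 2 (54.7%), and these plates stand apart in what they hold. In summed counts of a plate, fewer cells of a type and less RNA per cell cannot be told apart.

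Nr2f1, a regulator of cortical area identity and neuronal migration in other forebrain regions, was highest at E11 and E13 and lowest after birth. Its level, in counts per 1000000 counts of a plate (CPM), was 294 and 276 on the E11 plates and 194 on the E12 plate, then 234 and 336 at E13, 132 and 53.5 at E15, and 193 and 49.1 at E18. Postnatal plates had 15.6 and 12.9 (P4), 16.4 and 7.74 (P7), and 22.4 and 29.4 (adult). The 9 prenatal plates ranged from 49.1 to 336 CPM and the 6 postnatal plates from 7.74 to 29.4, with no overlap. How many of all genes separate the periods in this way was not counted. In Pou4f1-positive wells the periods overlapped, at 7.29 to 286 CPM before birth and 3.86 to 14.4 after. Group means put E11 (285 ± 13.0, SD, n = 2) beside E13 (285 ± 72.0, n = 2), and the E11 range lay inside that of E13. E15 (92.8 ± 55.6) lay inside the range of E18 (121 ± 102), and P4 (14.2 ± 1.93) inside that of P7 (12.1 ± 6.11), so these neighbours did not differ beyond their spread. The adult mean of 25.9 ± 4.96 stood above P4, yet it became 45.1 without wells above 3 times the median count of their plate. On the adult plates Pou4f1-positive wells were deeper, with medians of 14000 and 22180 counts against 3098 and 5323 in negative wells. That cut can therefore change the mix of wells, and its part in the rise was not tested.

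Nr2f2, known for venous, lymphatic and interneuron identity, was highest at E13. The E11 plates had 170.2 and 205 CPM, the E12 plate 260.0, the E13 plates 334 and 545, the E15 plates 155 and 53.5, and the E18 plates 231 and 33.2. The P4 plates gave 26.0 and 17.2, the P7 plates 18.3 and 10.9, and the adult plates 44.8 and 37.6. E18 plate 2, at 33.2, lay below both adult plates, so the prenatal range of 33.2 to 545 and the postnatal range of 10.9 to 44.8 overlapped. In order of the means, E13 (439 ± 149, n = 2) and E12 stood above E11 (188 ± 24.8) without overlap. E11, E18 (132 ± 140) and E15 (104 ± 71.6) overlapped in turn, as did P4 (21.6 ± 6.22) and P7 (14.6 ± 5.23). The adult mean of 41.2 ± 5.13 became 72.4 without wells above 3 times the median count of their plate, a cut that can change the mix of wells as for Nr2f1.

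Nr2f6, a repressor studied mainly in lymphocytes, had a narrower range. Both E11 plates had 45.0 CPM, the E12 plate 33.3, the E13 plates 33.0 and 46.7, the E15 plates 32.6 and 27.3, and the E18 plates 29.5 and 16.6. The P4 plates followed with 13.9 and 12.1, the P7 plates with 13.4 and 17.2, and the adult plates with 5.27 and 17.5. The prenatal plates (16.6 to 46.7) and the postnatal plates (5.27 to 17.5) overlapped, as E18 plate 2 lay below P7 plate 2 and adult plate 2. Neighbours in the order of the means overlapped in their plate ranges, except that the E12 plate lay above both E15 plates. Adult plate 1, the lowest, had 56 kept wells.

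**Figure D1:**
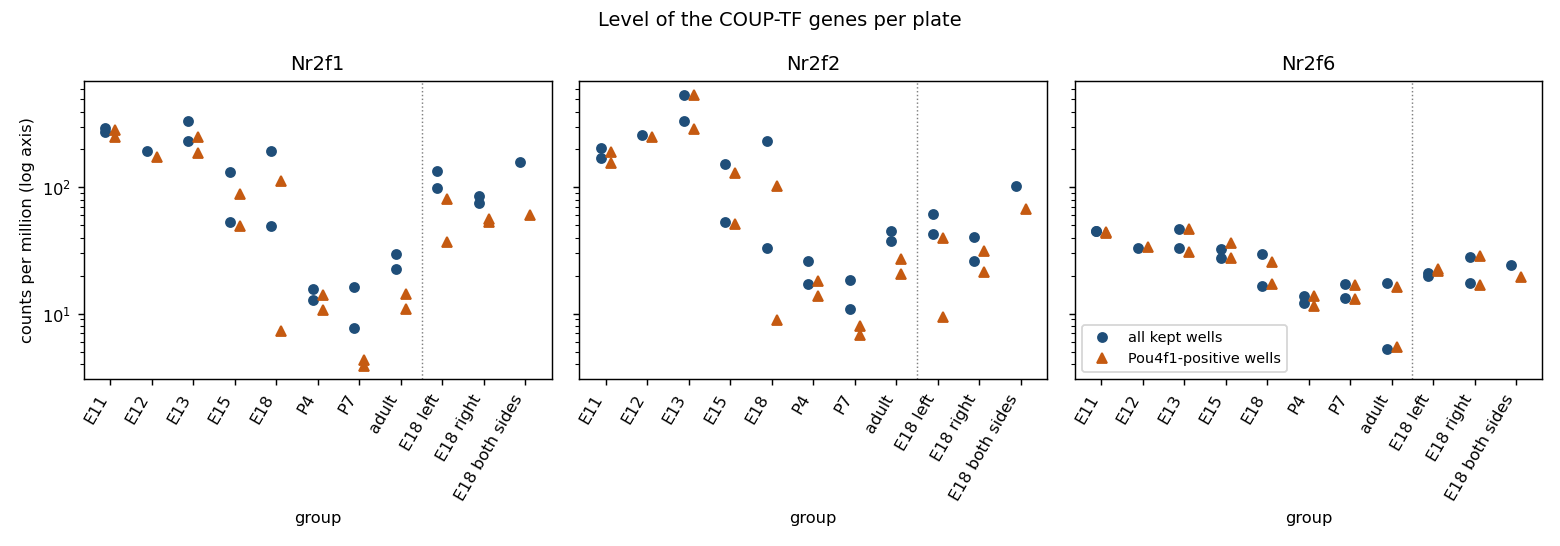
Level (CPM) of Nr2f1, Nr2f2 and Nr2f6 on a log axis, by stage for the series and by side for the second set at E18, with a dotted line between the sets. Each plate has a circle for all kept wells and a triangle for its Pou4f1-positive wells. Over all kept wells Nr2f1 lies between 49.1 and 336 on the prenatal plates and between 7.74 and 29.4 on the postnatal plates.

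The contrast of E11 with P7 and the adult was larger in Pou4f1-positive wells than over all wells for Nr2f1 and Nr2f2, and that with P4 was nearly as large over all wells. From E11 to P7 the ratio of mean levels was 23.6 for Nr2f1 over all wells and 65.9 in Pou4f1-positive wells. The same ratios were 12.8 and 23.8 for Nr2f2, and 2.94 and 2.95 for Nr2f6. From E11 to the adult they were 11.0 and 21.3 for Nr2f1, 4.56 and 7.33 for Nr2f2, and 3.95 and 4.08 for Nr2f6. From E11 to P4 they were 20.0 and 21.7 for Nr2f1, 8.71 and 11.0 for Nr2f2, and 3.46 and 3.49 for Nr2f6. On the E13 plates Nr2f2 was at 291 and 538 CPM in Pou4f1-positive wells, its highest values there.

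The share of positive wells was also mostly higher before birth once depth was made equal, though with overlap. In wells thinned to 2000 UMIs, Nr2f1 was seen in 6.54% to 38.8% of wells on prenatal plates (median 24.3%) and in 1.80% to 11.3% on postnatal plates (median 2.31%). Without thinning these shares were 9.09% to 75.9% and 6.12% to 24.3%. Thinned shares of Nr2f2 were 7.48% to 51.2% before and 1.42% to 10.0% after birth, and those of Nr2f6 were 1.48% to 9.51% and 0.635% to 3.67%. Adult plate 2 had the highest postnatal share of Nr2f1 wells. As a background, erythroid-like wells of the second set, which should lack these genes, had a count of Nr2f1 in 2.94% and of Nr2f2 in 5.88% of 34 wells at a median of 4099 counts, without thinning. The thinned postnatal shares near 2% may thus include background, and by themselves they do not count expressing cells. How much of them is background was not measured. On P7 plate 1, 88 of the 127 Nr2f1 counts lay in 16 vascular-like wells, of which 81.25% were positive without thinning. Positive wells also mostly held more Nr2f1 counts before birth, with overlap and at unequal depths. The mean was 2.501 to 6.65 Nr2f1 counts per positive well on prenatal plates and 1.72 to 3.44 on postnatal plates. For Nr2f2 these means were 2.22 to 8.62 and 2.00 to 3.78, and for Nr2f6 1.37 to 1.66 and 1.17 to 1.39, which overlap as well.

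Nr2f1 and Nr2f2 were seen in the same wells more often than the product of their shares. Among the 12 plates on which that product came to at least 1 well after thinning, the ratio of observed to multiplied was above 1 on all 12, from 1.31 to 4.84 with a median of 1.68. On E13 plate 2, 39 of 129 thinned wells held both. For Nr2f1 with Nr2f6 the ratio was above 1 on 10 of 12 plates (0.372 to 2.45), and for Nr2f2 with Nr2f6 on 5 of 11 (0 to 1.61). Plates mix cell types, so such a ratio also depends on which types each gene was seen in.

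The balance between the pair differed between stages. Nr2f1 made up 63.4% and 57.3% of the summed Nr2f1 and Nr2f2 counts on the E11 plates, 42.7% on the E12 plate, and 41.2% and 38.1% on the E13 plates. It was 46.0% and 50.0% at E15, 45.5% and 59.6% at E18, and 33.3% to 47.2% on the 6 postnatal plates. In the second set at E18 the share was 68.6% and 69.8% on the left, 68.0% and 74.3% on the right, and 60.8% for both sides. Both E11 plates thus had a higher share of Nr2f1 than every E12, E13, E15 and postnatal plate, and E18 plate 2 lay between them. Counts of different genes need not be captured alike, so the share is set side by side between plates and clusters and does not say which gene had more transcripts.

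At E18 the left plates had a higher Nr2f1 level than the right plates, a separation that ended without the highest well of each plate and stayed without the thalamus-like wells. Nr2f1 was at 134 and 98.9 CPM on the left, 86.1 and 74.8 on the right, and 158 where both sides shared a plate. Nr2f2 was at 61.2 and 42.9 on the left, 40.6 and 26.0 on the right, and 102 on both sides. Neither gene overlapped between the sides, and the ratio of right to left means was 0.691 for Nr2f1 and 0.639 for Nr2f2. How many of all genes separate the sides in this way was not counted. Nr2f6 was at 20.9 and 20.0 on the left and 17.6 and 28.3 on the right, which overlap, and at 24.1 on both sides.

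On left plate 1, 289 of 793 Nr2f1 counts (36.4%) came from 11 thalamus-like wells, and 1 of these wells held 152. Right plate 2 was alike, with 30.6% of its Nr2f1 counts in 6 thalamus-like wells and 18.6% in its highest well. On left plate 2, which kept 54 wells, 1 well held 43.6% of the Nr2f1 counts and another held 60.9% of the Nr2f2 counts. With the highest well of each plate left out, Nr2f1 was at 109 and 58.2 CPM on the left and 78.9 and 61.6 on the right, and Nr2f2 at 54.5 and 17.1 against 34.7 and 21.5. The sides then overlapped for both genes. Without the thalamus-like wells Nr2f1 was at 90.8 and 99.97 CPM on the left and 79.8 and 54.6 on the right. Without these and an unnamed cluster with Aqp4 it was at 59.0 and 55.5 against 47.3 and 34.1, and Nr2f2 at 55.8 and 38.2 against 31.2 and 16.7, so the sides stayed apart. The 38.2 of left plate 2 still includes its highest Nr2f2 well, which held 48 of the plate's 79 counts and lies in another cluster. Erythroid markers also moved with side: their summed level was 19050 and 17220 CPM on the left plates, 3410 and 266 on the right plates, and 26.1 where both sides shared a plate. Of the 34 erythroid-like wells, 31 were on left plate 1. Neuronal wells made up 79.2% and 75.9% of the left plates and 89.6% and 84.2% of the right plates. The part of either in the side difference was not tested. In Pou4f1-positive wells the right to left ratio was 0.932 for Nr2f1, 1.08 for Nr2f2 and 1.02 for Nr2f6. In Pou4f1-negative wells the sides stood apart, with 389 and 505 CPM of Nr2f1 on the left and 276 and 172 on the right, and 165 and 262 of Nr2f2 against 94.0 and 49.6. Left plate 2 had 14 such wells, among them its highest wells, with 80 of the 124 Nr2f1 counts and 48 of the 64 Nr2f2 counts there. The Pou4f1-negative wells were not compared without the highest well. Thinned shares of Nr2f1 wells did not follow the level, at 12.1% and 12.5% on the left plates and 10.9% and 15.2% on the right plates. Those of Nr2f2 were 8.33% and 6.25% against 6.88% and 4.80%, which overlap. The E18 plates of the series (49.1 and 193 CPM of Nr2f1, 33.2 and 231 of Nr2f2) spanned all 5 C57BL/6 plates for Nr2f1 and 4 of 5 for Nr2f2, with right plate 2 below them. Strain and set cannot be told apart between the sets.

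Clusters of wells show where the counts lay. Clusters were named from marker lists and are described without a test, because they were formed from gene counts of the same wells. In the series the highest level of Nr2f2, 1347 CPM, was in an intermediate progenitor-like cluster of 59 wells led by Tbr1 and Eomes, transcription factors of newborn glutamatergic neurons. Nr2f1 was at 710 CPM there, and 98.3% of its wells held each gene. The cluster came mainly from E13: the 12 wells of plate 1 gave 1167 CPM of Nr2f1 and 1335 of Nr2f2, and the 34 wells of plate 2 gave 601 and 1265. A second intermediate progenitor-like cluster, led by Lhx1 and Neurod4, had 643 CPM of Nr2f1 and 538 of Nr2f2.

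Dividing wells also had high levels. The progenitor-like cluster, led by mitotic genes such as Top2a, was at 624.8 CPM of Nr2f1 and 428 of Nr2f2. Its Nr2f1 level was 889 and 1106 on the E11 plates and 961 at E12, but 174 on E13 plate 2. Of the vascular-like clusters, the one led by the collagen gene Col1a1 had 574 and 606 CPM of Nr2f1 and Nr2f2, and the one led by Rgs5, known from pericytes, had 393 and 590.2. The cluster led by Cldn5, a tight junction gene of endothelium, had 53.6 and 202, with 25.5 and 93.7 in its 35 wells of adult plate 2. In the Col1a1 cluster Nr2f1 was 756 on E18 plate 2 and 588 on P7 plate 1, so the level was high on a postnatal plate too.

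Glial clusters differed from each other. An astrocyte-like cluster led by Fabp7 and Tnc had 462 CPM of Nr2f1 and 254 of Nr2f2, but 946 of Nr2f1 on E18 plate 1 (30 wells) and 14.3 on P4 plate 2 (11 wells). A second one, led by Agt and mostly from the adult, had 207 CPM of Nr2f1 and 31.9 of Nr2f2. An oligodendrocyte lineage-like cluster led by Gpr17 and Neu4 had 115 and 60.6 CPM. A cluster without a name, led by Sspo and Ccdc153, which mark the subcommissural organ and ciliated ependyma, had 187 CPM of Nr2f1 and 631 of Nr2f2. Its Nr2f2 level was 982 on E18 plate 1 and 164 on adult plate 2.

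Of the series clusters with habenula genes given here, the mostly postnatal ones had low levels and the embryonic ones higher levels. The medial habenula-like cluster of the series had 2.10 CPM of Nr2f1 and 4.89 of Nr2f2 in 98 wells, and the class had 7.02 and 10.5 at a clustering resolution of 0.5, and 8.24 and 16.7 at 1.5. An unnamed cluster led by Gad1 and Pde11a had 0.270 and 1.89, and one led by Htr5b and Gpr151, genes of the lateral habenula, had 5.16 and 10.3. Higher values came from the unnamed clusters with 6 and 8 medial habenula markers, led by Gm12130 and Hspa1b. They had 11.7 and 10.3 CPM of Nr2f1 and 17.6 and 27.4 of Nr2f2. An unnamed cluster led by Dmrtb1, with 188 of its 299 wells from the E12 plate, passed as many lateral habenula markers as the Htr5b cluster (3) and had 103.5 CPM of Nr2f1 and 240.0 of Nr2f2. Another, mostly from E11, passed 4 neuron, 2 lateral habenula and 2 thalamus markers and had 103 and 65.1. Nr2f6 was at 11.9 CPM in the medial habenula-like cluster and reached 92.7 in the Rgs5 cluster. Microglia-like wells had 12.0 CPM of Nr2f1 and 20.0 of each of the other genes.

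**Figure D2:**
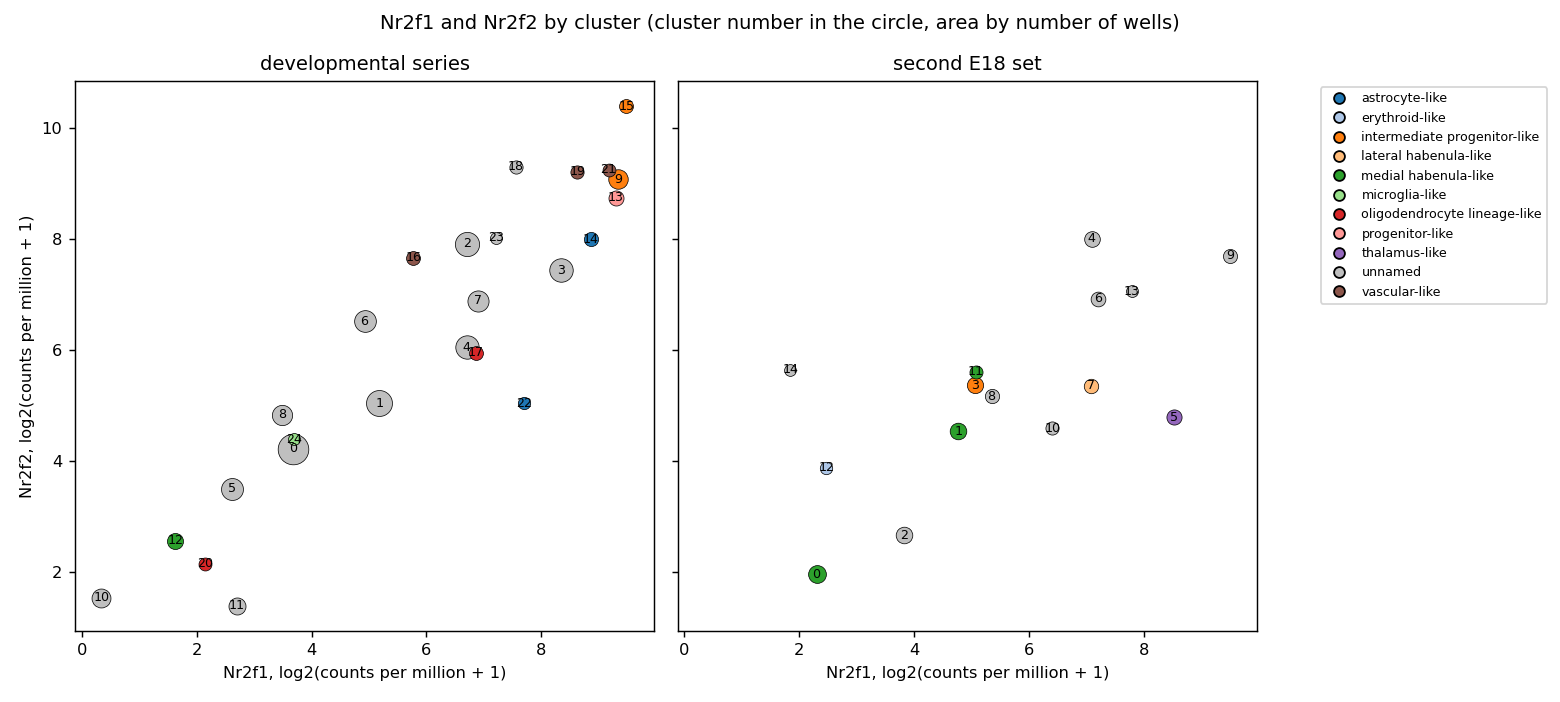
Nr2f1 (x axis) against Nr2f2 (y axis), both as log2(CPM + 1), 1 circle per cluster of at least 20 wells, numbered by cluster, with area by number of wells and colour by class; the series and the second set have a panel each. The Tbr1 cluster of the series (15) is highest for both genes, and the Gbx2 cluster of the second set (5) lies at high Nr2f1 and low Nr2f2.

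In the second set at E18 the share of Nr2f1 in the counts of the pair varied between clusters. A thalamus-like cluster led by Gbx2, a thalamic transcription factor, had 366 CPM of Nr2f1 and 26.6 of Nr2f2 in 81 wells, so Nr2f1 made up 93.2% of the pair's counts (exact 95% interval 91.4% to 94.8%). In a cluster led by Gad2, an enzyme of GABA synthesis, the levels were 135 and 256 CPM, and the share was 34.5% (31.5% to 37.7%). Its plates differed: right plate 1, with the most of its wells (31), had 84.0 CPM of Nr2f1 and 66.0 of Nr2f2, while left plate 1 had 125 and 262 and the plate of both sides 193 and 502. A cluster led by the photoreceptor gene Crx among others had a share of 5.0% (0.126% to 24.9%) of 20 counts. These intervals cover counting error only, and reads of 1 well share a cell.

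Further clusters of that set spanned a wide range of levels. An unnamed cluster with the astrocyte gene Aqp4 among its leading genes had 723 CPM of Nr2f1 and 207 of Nr2f2, and the 3 plates with at least 10 of its wells gave 843, 767 and 745 for Nr2f1. The lateral habenula-like cluster had 134 CPM of Nr2f1 and 40.0 of Nr2f2, but left plate 1 gave 107 and 40.6 and right plate 1 34.6 and 23.9. Its pooled Nr2f1 level lies above both, so it also rests on the other plates, each with fewer than 10 of its wells. At a clustering resolution of 1.5 that class had 71.7 and 22.7. The medial habenula-like clusters had 3.93, 26.2 and 32.7 CPM of Nr2f1 and 2.88, 22.2 and 47.8 of Nr2f2. The 47.8 rests on the plate of both sides (120 CPM), beside 20.0 on left plate 1 and 14.9 on right plate 1. Nr2f6 stayed between 18.9 and 26.1 CPM in the medial, lateral, intermediate progenitor and thalamus-like classes, and was at 4.55 in the erythroid-like wells. The thalamus-like cluster drew 54 of its 81 wells from the plate of both sides, where Nr2f1 was at 265 CPM, against 787 on left plate 1.

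Whether the receptors differ between wells of 1 plate was not part of the choice of the genes, and it was tested. Wells with at least 1 count of Pou4f1, the transcription factor that marks habenula neurons from their birth, were summed and set against wells of the same plate with none. Nr2f1 and Nr2f2 were lower in Pou4f1-positive wells on 15 of 15 series plates. For Nr2f1 the prenatal plates gave 119 to 688 CPM (median 467) in negative wells and 7.29 to 286 (median 174) in positive wells, and the postnatal plates 44.5 to 281 (median 85.7) and 3.86 to 14.4 (median 10.9). For Nr2f2 these were 91.7 to 554 (median 420) and 8.91 to 538 (median 157), then 75.6 to 272 (median 115) and 6.74 to 27.0 (median 15.9). The 2 sides did not overlap within either gene after birth and overlapped before. The share of all genes whose sides separate like this was not counted.

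In the fit over 10147 genes with the plate as a block, Nr2f1 fell by 2.25 on the log2 scale (SE 0.403, adjusted p = 0.00022, edgeR's quasi-likelihood test with Benjamini-Hochberg adjustment). Nr2f2 fell by 2.01 (SE 0.369, adjusted p = 0.000285, edgeR). Nr2f6 gave -0.21 (SE 0.186, adjusted p = 0.416, edgeR), with 9 plates lower and 6 higher. Thus 2 of the 3 genes were called lower and 0 higher, where 16.6% of all genes tested were called lower and 19.2% higher. The median difference was -2.01 over the 3 members and 0.03 over all genes tested. With the gate read after thinning to 2000 UMIs, which left out 1 plate, the differences were -1.019 for Nr2f1 and -0.91 for Nr2f2, with adjusted p of 0.00535 and 0.00381 (edgeR).

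Other properties of the wells moved with the gate. Pou4f1-positive wells were deeper on 15 of 15 plates, with a ratio of median counts from 1.27 to 5.22. Neuronal lists led in 66.7% to 100% of positive wells and in 9.26% to 86.7% of negative wells of a plate. In neuronal wells alone, on the 12 plates with enough of them, Nr2f1 still fell by 1.78 and Nr2f2 by 1.22 on the log2 scale, with adjusted p of 1.46e-06 and 0.000356 (edgeR). There 118 of 8126 genes were called lower and 229 higher. E18 plate 2, P4 plate 1 and P7 plate 1 had too few neuronal Pou4f1-negative wells to enter. The selection of neuronal wells was made after the data were seen, and the part of depth in the result was tested only by thinning.

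For Nr2f1 and Nr2f2 the 5 plates of the second set gave the same direction, and for Nr2f6 they did not. Nr2f1 was at 389, 505, 276, 172 and 274 CPM in Pou4f1-negative wells of left plates 1 and 2, right plates 1 and 2, and the plate with both sides. In positive wells of these plates it was at 80.5, 36.9, 53.5, 55.9 and 60.9 CPM. Negative and positive wells did not overlap, a separation not counted over all genes, and Nr2f1 fell by 2.38 on the log2 scale (SE 0.234, adjusted p = 0.000108, edgeR). Nr2f2 was at 165, 262, 94.0, 49.6 and 143 CPM in negative and at 39.7, 9.35, 31.4, 21.4 and 67.1 CPM in positive wells. Its plates were all lower in positive wells, though the ranges overlapped, and it fell by 1.92 (SE 0.373, adjusted p = 0.00484, edgeR). Nr2f6 gave 0.06 (SE 0.276, adjusted p = 0.936, edgeR), so again 2 of 3 members were called lower and 0 higher, against 10.8% and 6.7% of 12962 genes. The median over all genes tested was 0.0043. Positive wells were deeper on 5 of 5 plates (ratio 1.49 to 4.14), and in neuronal wells alone, on 4 plates, the differences were -2.34 and -1.48, with adjusted p of 9.25e-05 and 0.0028 (edgeR). That neuronal fit lacked left plate 2, and 801 of 12931 genes were called lower and 531 higher in it.

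**Figure D3:**
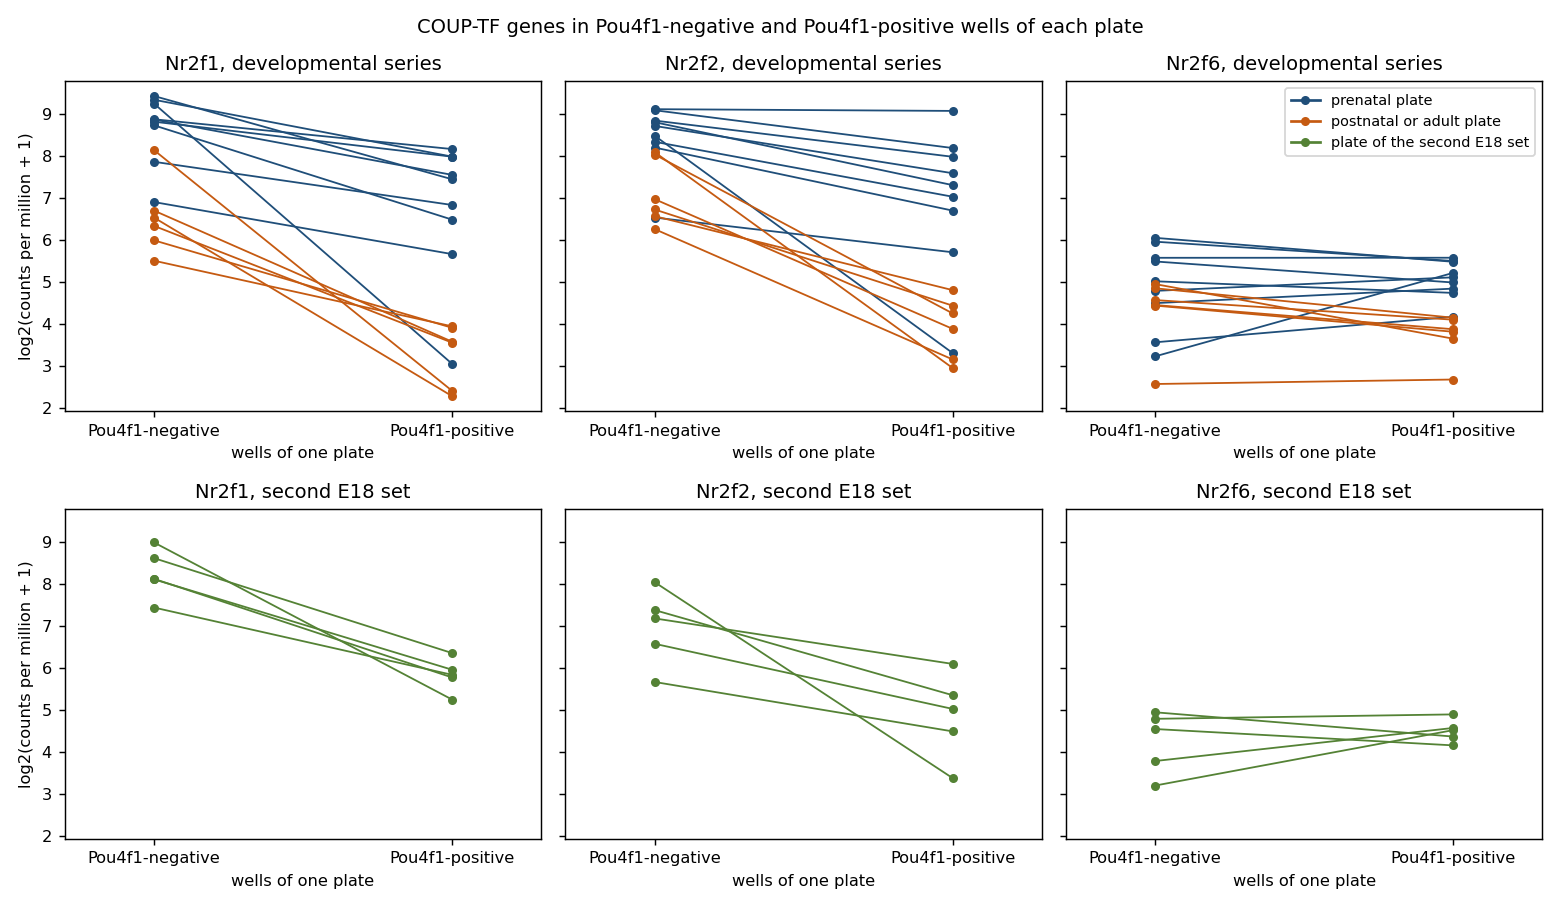
Level of each gene as log2(CPM + 1) in Pou4f1-negative and Pou4f1-positive wells, with a line joining both values of a plate; the upper and lower rows are the series and the second set. Every line slopes down for Nr2f1 and Nr2f2, on 15 and 5 plates, and lines of Nr2f6 run both ways.

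Partners and cofactors of the receptors were read in the same comparison. Zfpm2 (FOG2), a cofactor that binds COUP-TFII, was lower in Pou4f1-positive wells on 15 of 15 plates and fell by 2.23 on the log2 scale (SE 0.453, adjusted p = 0.000698, edgeR). Sin3a, a scaffold of histone deacetylase complexes, fell by 0.51 (adjusted p = 0.00998, edgeR). Of 12 cofactors tested, 0 were called higher and these 2 lower, a share close to the 16.6% of all genes called lower, with a median of 0.01. On the C57BL/6 plates, where 10.8% of all genes were called lower and 6.7% higher, 2 of 12 were called in each direction: Zfpm2 (-2.09) and Ncoa1 (-0.58), a coactivator, fell, and Bcl11b (2.14) and Bcl11a (1.64), zinc-finger proteins that bind COUP-TFs, rose. The median of the cofactors there was 0.13.

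The NR2 relatives and heterodimer partners were read the same way, beside 16.6% of all genes called lower and 19.2% higher in the series and 10.8% and 6.7% in the second set. In the series 5 of 12 were tested, and Nr2c2 (0.39) was called higher and the retinoic acid receptor Rarb (-1.023) lower, with a median of 0.11. In the second set 8 were tested and 3 were called lower: Nr2e1, a receptor of neural stem cells (-2.75), Rxrg (-1.61) and Rara (-1.16), with a median of -0.67 and 0 called higher. Of the 13 genes linked to COUP-TF in other tissues, 8 were tested in the series. Foxc1 (-4.33), Notch1 (-3.49), Pax6 (-2.24) and Nrp1 (-2.03) fell and 1, the semaphorin receptor Nrp2, rose, with a median of -1.23. On the C57BL/6 plates 5 of 9 fell, led by Notch1 (-2.64), Angpt1 (-2.33) and Pax6 (-2.21), and 2 rose, Nrp2 (2.03) and the small GTPase Rnd2 (0.53), with a median of -0.49. Foxc1 marks mesenchyme, Notch1 and Pax6 mark progenitors, and Nrp1 and Nrp2 are receptors of axon guidance. Nrp2 in the series and Rnd2 lie outside the 4 genes per list that the naming rule allows and were added after their values were seen.

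The gap between Pou4f1-positive and negative wells was wider after birth for Nr2f2. The interaction of gate and period, postnatal minus prenatal, was -1.95 for Nr2f2 on the log2 scale (SE 0.560, adjusted p = 0.0291, edgeR). For Nr2f1 it was -1.80 (SE 0.688, adjusted p = 0.098, edgeR), and for Nr2f6 -0.55 (SE 0.362, adjusted p = 0.364, edgeR). Of the 3 members, 1 was called lower and 0 higher, where 6.36% of 12335 genes were called lower and 4.94% higher. The call of Nr2f2 was lost without P4 plate 1 (adjusted p = 0.0638, edgeR) and without P7 plate 1 (adjusted p = 0.0799, edgeR), and Nr2f1 passed without E18 plate 2 (adjusted p = 0.00653, edgeR). In neuronal wells alone the interaction was -0.41 for Nr2f2 and -0.30 for Nr2f1, with adjusted p of 0.888 and 0.939 (edgeR). That fit had 12 plates and lacked E18 plate 2, P4 plate 1 and P7 plate 1, the last 2 being plates whose removal alone ended the call. The call of Nr2f2 also ended with the gate read after thinning (-0.84, adjusted p = 0.515, edgeR) and with at least 2 counts of Pou4f1 (-1.84, adjusted p = 0.0691, edgeR).

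All genes tested had a median interaction of 0.11, which became -0.018 with DESeq2-type size factors. The split of calls, 609 higher (4.94% of 12335 genes) and 784 lower (6.36%), became 359 and 888 with those factors and 515 and 1078 with DESeq2. In neuronal wells alone 1 gene was called, and 53 were with the gate read after thinning. At most 1 of the list calls that follow was therefore also called in neuronal wells. The neuronal fit had 12 plates, so a call lost there does not show that the difference is absent. Zfpm2 showed the same sign as Nr2f2, at -3.09 (adjusted p = 0.000274, edgeR), and Bcl11a the other, at 2.01; these were the 2 of 12 cofactors called, and the median of the list was 0.25. Of 11 linked genes, 6 fell, with Foxc1 (-3.19), Pax6 (-2.68), Nrp1 (-2.62) and Notch1 (-2.36) first, and 1, Nrp2 (1.41, named after its value was seen), rose, with a median of -1.12. Among 9 relatives tested, Nr2c2 (0.65) was called higher by edgeR and none was called by DESeq2, with 3 at an unadjusted p under 0.05 by either tool and a median of -0.41.

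Among Pou4f1-positive wells after birth, those with a count of Tac1, the substance P precursor that marks the dorsal medial habenula, had less Nr2f2. The wells without Tac1 had 19.9, 16.4, 8.32, 10.4 and 23.5 CPM on P4 plates 1 and 2, P7 plates 1 and 2 and adult plate 2, and those with it had 11.7, 0.940, 5.14, 5.27 and 14.3. Nr2f2 was lower on 5 of 5 plates and fell by 1.03 on the log2 scale (SE 0.270, adjusted p = 0.0184, edgeR). Nr2f1 was at 16.3, 10.8, 7.52, 5.395 and 10.9 CPM without and at 6.26, 10.3, 1.08, 2.26 and 11.1 with Tac1, lower on 4 plates, a difference of -0.95 (SE 0.340, adjusted p = 0.0954, edgeR). Nr2f6 differed by -0.07 (SE 0.175, adjusted p = 0.89, edgeR). Thus 1 of 3 members was called lower and 0 higher, where 5.21% and 5.53% of 12428 genes were. The levels rest on few counts per well, and adult plate 1 had too few wells to enter. In the order above, the Tac1-positive wells of a plate together held 15, 1, 19, 14 and 18 Nr2f2 counts. Of Nr2f1 they held 8, 11, 4, 6 and 14.

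The call of Nr2f2 was lost without P7 plate 2 (adjusted p = 0.0629, edgeR), and Nr2f1 passed without adult plate 2 (-1.26, adjusted p = 0.0358, edgeR). Depth differed little with this gate, at ratios of 0.881 to 1.29. By edgeR and by DESeq2, 0 of 7 relatives and 0 of 12 cofactors were called, with 0 relatives and 3 cofactors at an unadjusted p under 0.05 by edgeR, 0 and 2 by DESeq2, and medians of -0.06 and -0.10 (edgeR). Of 8 linked genes 3 rose, the transcription cofactor Eya1 (1.35), the homeobox gene Otx2 (0.82) and Lmo4 (0.42), where 5.53% of all genes were called higher, with a median of 0.34, beside -0.0011 over all genes.

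Prenatal wells with a count of Top2a or Mki67, genes of dividing cells, did not differ from the others in a common direction. Nr2f1 was at 421, 756 and 383 CPM in cycling wells of E11 plates 1 and 2 and E12, and at 273, 245 and 164 in the other wells of these plates. On E13 plates 1 and 2 and E18 plate 1 the order was the other way, with 163, 274 and 71.2 in cycling wells and 260, 479 and 210.2 in the rest, while E15 plate 1 had 144 and 131. Over these 7 plates the difference was 0.12 for Nr2f1 (SE 0.301, adjusted p = 0.854, edgeR), 0.11 for Nr2f2 (SE 0.237, adjusted p = 0.837, edgeR) and -0.0038 for Nr2f6 (SE 0.227, adjusted p = 0.998, edgeR). By edgeR and by DESeq2, 0 of the 3 members were called and 0 had an unadjusted p under 0.05, where 5.46% of 10439 genes were called higher and 4.63% lower. Whether the early and late plates differ in this contrast was not tested. For Nr2f2 the cycling wells were higher on E11 plates 1 and 2 (283 against 151 and 494 against 187) and E12 (390.2 against 239), and lower on the other 4 plates. In this comparison Nr2e1 (3.36) and Rxra (0.95) rose among 6 relatives, Notch1 (2.56) rose among 7 linked genes, and 0 of 11 cofactors were called by either tool (3 at an unadjusted p under 0.05 by edgeR, 2 by DESeq2), with medians of 0.04, 0.49 and 0.14 beside -0.04 over all genes. In neuronal wells alone 0 of 8207 genes were called (edgeR, 388 at an unadjusted p under 0.05), so none of these calls was made there. The gate genes Top2a and Mki67 stayed in the progenitor list that competes with the neuronal lists, so the selection can take out cycling wells by the gate genes themselves. Of 275 cycling wells, 154 were left. The loss of these calls is thus no test of them.

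**Figure D4:**
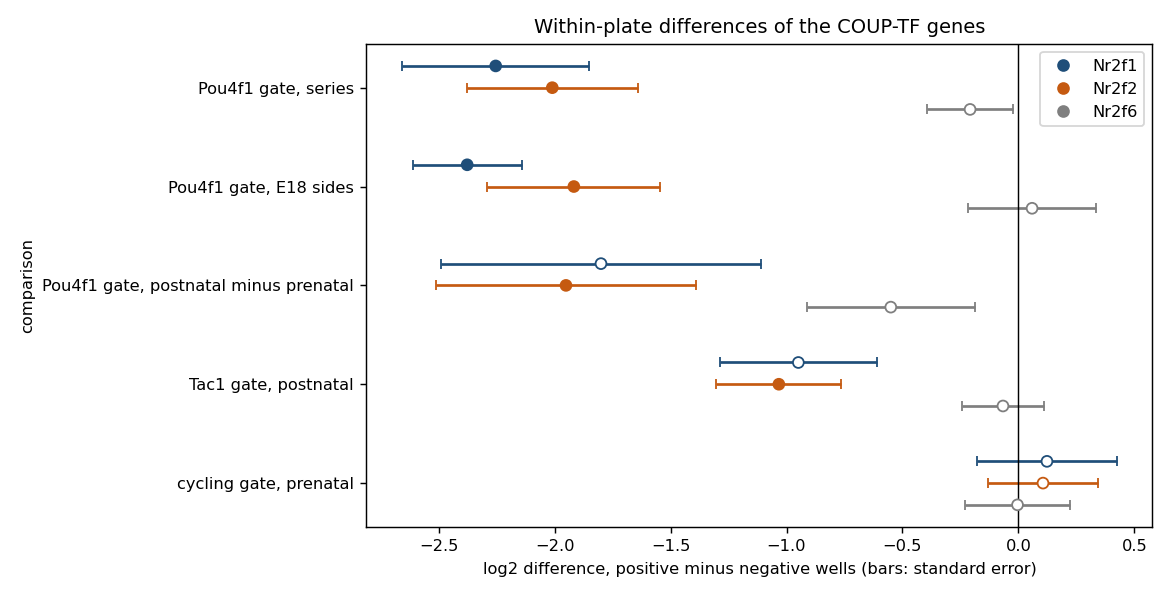
Log2 difference with its standard error (bars) of Nr2f1, Nr2f2 and Nr2f6 in each within-plate comparison; filled points have an adjusted p under 0.05. The Pou4f1 comparisons of the series and of the second set give -2.25 and -2.38 for Nr2f1 and -2.01 and -1.92 for Nr2f2. No point of Nr2f6 is filled, and the one farthest from 0 is the interaction of gate and period.

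The share of unspliced counts, which played no part in choosing the genes, was compared between prenatal and postnatal plates with at least 20 counts of the gene. For Nr2f1 it was 6.36% ± 3.77 (SD, n = 9) before and 5.06% ± 2.95 (n = 5) after birth, a difference of -1.30 percentage points (two-sided exact permutation test, p = 0.527, adjusted over the 3 genes 0.791). For Nr2f2 it was 11.3% ± 2.82 (n = 9) and 14.0% ± 5.19 (n = 6), a difference of 2.66 points (exact permutation p = 0.217, adjusted 0.65). The differences were within the spread between plates. Nr2f6 had 2 unspliced counts of 1005 before birth and 0 of 455 after, which allows a share of up to 0.659%, with exact permutation p = 1. Over all genes 17.6% to 26.2% of a plate's counts were unspliced.

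Each gene overlaps a gene on the other strand, and the sources used here do not say whether counting used strand. Without it, reads of the overlaps cannot be told apart. The overlap lies at the start of Nr2f1 and of Nr2f2 and at the 3' end of Nr2f6, and the method counts 3' ends. Nr2f1 shares 1741 bases with the antisense gene A830082K12Rik, which was at 1.06 to 39.8 CPM in the series, with 37.5 and 39.8 at E13 and 2.32 and 1.06 at P7. Nr2f2 shares 1826 bases with B130024G19Rik (0.307 to 39.1 CPM, highest on E18 plate 1), and Gm44948 lies 4248 bases away. Nr2f6 shares 5239 bases with Ocel1 (1.51 to 9.80 CPM), and Ushbp1 (0 to 4.25 CPM) and Use1 (35.2 to 75.0 CPM) lie 2312 and 4391 bases away. The opposite-strand partners of Nr2f1 and Nr2f2 had their lowest values on postnatal plates.

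The genes whose levels followed each receptor most closely were ranked by Pearson's r of log2(CPM + 1) over the 15 series plates among 10802 genes, as a description. For Nr2f1 these were Clic1 (0.98), Shox2, a homeobox gene of the diencephalon (0.97), Efnb2, an ephrin ligand (0.97), Nr2f2 (0.97) and Myh10, a nonmuscle myosin (0.97). For Nr2f2 they were Gins1, part of the replication machinery (0.97), Nr2f1 (0.97), Llgl1, a polarity gene (0.96), Selenon (0.96) and Hmga2, a chromatin protein of early development (0.96). Those of Nr2f6 were Kmt5c, a histone methyltransferase (0.98), Snrnp25 of the minor spliceosome (0.97), Csrp2 (0.97), Mospd1 (0.97) and Pcbp2, an RNA-binding protein (0.96). Nr2f6 correlated with Nr2f1 at 0.85 and with Nr2f2 at 0.77. All plates share the difference between prenatal and postnatal mixtures of wells, and without adult plate 1, on which oligodendrocyte lineage wells outnumbered neuronal ones with Pou4f1 kept in the lists, 3, 2 and 2 of these 5 genes remained in the lists of Nr2f1, Nr2f2 and Nr2f6.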

How the data were processed

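The authors deposited, for each of 2 sets of Cel-seq2 plates, tables of total and unspliced transcripts per gene and well. The deposited values are expected counts: UMI counts corrected for collisions among 4096 possible 6-base UMIs, a form found from the values, which gave a whole UMI number for 100% of them. Per the submitters' processing notes, STAR 2.5.3a, Trim Galore and mm10 were used; for the counting program, annotation and use of strand, nothing is given in the sources used here. The 92 spike-in rows were left out of library sizes and tests.

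A well was kept with at least 1000 counts, 500 genes and at most 20% mitochondrial counts. Levels are counts per 1000000 counts over the kept wells of a plate. The plate was the replicate and supplied a positive and a negative library to each within-plate comparison where each side had at least 10 wells. The planned test was for whole counts; the deposited values were summed and rounded instead, and tested with edgeR 4.0.16 (R 4.3.3; filterByExpr, TMM, quasi-likelihood test, plate as a block, threshold 0.05 after Benjamini-Hochberg adjustment). Gate genes were left out of counts of calls. The test was checked on simulated data with the real means and library sizes. The simulation used a single fixed dispersion for all genes and left out genes of low counts, so its shares need not hold for the members. Of genes changed 4-fold, 100% were recovered among 9835 genes in the Pou4f1 comparison of the series and 98.9% in the second set. For the interaction, Tac1 and cycling wells the shares were 59.8%, 95.7% and 97.5%. Of genes changed 2-fold, the shares in the same order were 90.1%, 22.9%, 7.53%, 21.1% and 50%.

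Wells were clustered per set with scanpy 1.11.5 (2000 variable genes, 30 components, 15 neighbours, resolution 1). A cluster was named "X-like" with at least 3 markers of a class 2-fold above the other wells and seen in 20% of its wells, and at least 1 among its top 10 genes, the last condition added after the clusters were seen. Names that a rebuilt clustering gives may differ from those of the study. No doublet caller was run; wells above 3 times their plate's median count, 83 in the series and 12 in the second set, were left out in an alternative. Wells are numbered by position, so equal numbers on different plates are not shared cells. Intervals are exact (Clopper-Pearson, 95%), and the limit for a count of 0 is 3 counts; both cover counting error only.

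The members and the gene lists were chosen with earlier results of these data known. Besides the members, the text names up to 4 genes of each list past the threshold with the largest log2 difference, genes within 5000 bases of a member, and the 5 most alike genes. Coordinates are from GENCODE M21 (GRCm38), which held 37938 of 37994 and 36050 of 36104 gene IDs. Nothing in the labels says that plates came from separate animals or litters, so p-values measure the spread between plates, which may be technical. A sequencing run held 5 plates, but the sources used here do not say which ones, so run and stage cannot be told apart. The plate of both sides is titled E1 and its other labels say E18, which was used. Alternatives covered the tool, size factors, filter, gate, depth, doublets, block and each plate left out.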

Additional observations from a re-analysis of the deposited data

Results flagged for a closer look

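Dixon's criterion for a sample far from the rest was applied to 20 groups of plates and met in 6, where chance gives about 1 in 20 groups. All values that follow are differences in log2(CPM + 1), positive minus negative wells of a plate, unless stated. E18 plate 2 was the lowest of the 9 prenatal plates in the Pou4f1 comparison for Nr2f1, at -6.20 with the others from -2.25 to -0.71, and for Nr2f2, at -5.18 with the others from -1.50 to -0.04. For Nr2f6 in that comparison E15 plate 1 was the highest of the 9, at 1.99 with the others from -0.57 to 0.61. Its Pou4f1-negative wells held 2 Nr2f6 counts. In the Tac1 comparison P4 plate 2 was the lowest of 5 for Nr2f2, at -3.16 with the others from -0.87 to -0.60. Its Tac1-positive wells held 1 Nr2f2 count. In the second set left plate 2 was the lowest of 5 for Nr2f2, at -4.67 with the others from -2.03 to -1.08; on that plate 1 well held 60.9% of the Nr2f2 counts. The unspliced share of Nr2f6 was 1.27% at E12 and 0 on the other 8 prenatal plates, from 2 unspliced counts.

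The Pou4f1 difference of Nr2f2 differed between periods by a test of the interaction, at -1.95 on the log2 scale, postnatal minus prenatal (SE 0.560, adjusted p = 0.0291, edgeR). Over the alternatives its adjusted p ran from 2.37e-08 to 0.888.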

How the results depend on the processing

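The differences of Nr2f1 and Nr2f2 with Pou4f1 kept their direction and their side of the threshold under every alternative run, in both sets. In the series they ran from -2.68 to -1.019 and from -2.31 to -0.91, with adjusted p up to 0.00535 and 0.00381 (edgeR or DESeq2). Leaving out each plate gave -2.40 to -2.02 and -2.18 to -1.80. Without the replicate block (no replicate block, stage or side as a term) the plates' pairing changed no call of a member, and 3955, 2044, 1148, 1117 and 834 genes were called in the series, the second set, the interaction, the Tac1 and the cycling comparison, against 3631, 2273, 1393, 1334 and 1053 with it; Nr2f6 in cycling wells became 0.0085. No paired analysis was possible for the unspliced share because each plate gives 1 value.

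Counts of genes called moved by over 1.5 times as follows. With no filter on low counts they were 6500 in the series, 3416 in the second set and 2203 for cycling wells. With the gate read after thinning they were 1617 in the series, 53 for the interaction, 675 for Tac1 and 2672 for cycling wells, and with at least 2 counts of the gate gene 2533 for the last. In only neuronal wells they were 347, 1332, 1 and, for cycling wells, 0 (edgeR, with 388 genes at an unadjusted p under 0.05). Without plates with under 65% neuronal wells the interaction called 716. Leaving out 1 plate gave 1193 to 2347 in the second set (lowest without the plate of both sides), 915 to 1675 for the interaction (915 without P7 plate 1, 926 without adult plate 2) and 376 to 1298 for cycling wells (376, 514, 423 and 635 without E11 plate 1, E11 plate 2, E12 and E13 plate 1). The choices on neuronal wells were made after seeing the data, and the cause of these moves was not tested.

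The interaction of Nr2f2 lost its call with thinning (-0.84), with at least 2 counts (-1.84, adjusted p = 0.0691, edgeR) and in only neuronal wells (-0.41), and ran from -2.27 to -1.56 with 1 plate left out. That of Nr2f1 passed with no filter (-1.73) and ran from -2.15 to -1.26 with 1 plate left out; over all alternatives its adjusted p was 2.4e-06 to 0.939. The Tac1 difference of Nr2f1 passed with no filter (-0.99), with at least 2 counts (-1.39) and without plates under 65% neuronal wells (-1.26), with a range of -1.26 to -0.61 over plates left out and adjusted p of 0.00813 to 0.362 over all alternatives; with thinning it was not among the genes tested. That of Nr2f2 lost its call with thinning (-1.63) and ran from -1.14 to -0.78 over plates left out, with adjusted p of 0.000108 to 0.0629 over all alternatives.

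Small differences that never passed changed sign. In the series Nr2f6 became 0.028 with no filter, 0.042 with thinning and 0.27 in only neuronal wells. In the second set it became -0.26 with thinning, -0.036 with at least 2 counts and -0.11 in only neuronal wells, and ran from -0.080 to 0.33 over plates left out. In cycling wells it became 0.012 with DESeq2-type size factors, 0.27 with thinning, 0.35 with at least 2 counts, 0.033 without wells of high counts and 0.088 without plates under 65% neuronal wells, with -0.15 to 0.12 over plates left out. There Nr2f1 became -0.046 and Nr2f2 -0.059 with no filter, with ranges over plates left out of -0.13 to 0.34 and -0.10 to 0.28. Thinning moved 30 of 33 shares of positive wells by more than the spread between plates (in groups of 1 plate, the counting interval), 124 of 132 levels per group moved by less, and 11 of 57 levels per class moved by more with the clustering resolution, such as Nr2f2 in intermediate progenitor-like wells of the series (448 to 1347); all 60 unspliced results kept their side. Adult plate 1 and left plate 2 had the fewest kept wells, 56 and 54.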
